A study of Mus musculus with 27 samples.

Results

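The insulin-like growth factor (IGF) binding protein genes Igfbp1 to Igfbp7 were followed in the mouse liver over a reproductive cycle. They were chosen by name as the members of the family. All 7 were found among the 51826 genes of the deposited tables, and all 7 passed the filter on low counts. The livers came from 27 age-matched wild-type BALB/c mice, an inbred laboratory strain. Breeding started at 10 to 12 weeks of age, litters were evened out, and dams nursed for 10 to 14 days before their pups were taken away, which began involution, the period after weaning. The 7 stages were non-pregnant animals that had never bred (NUL, 4 mice), lactation day 10 (LAC, 3), involution days 2 (ID2, 3), 4 (ID4, 4), 6 (ID6, 6) and 8 (ID8, 3), and a regressed stage 4 weeks past weaning (REG, 4). Each mouse gave 1 bulk RNA-seq library of the whole organ, so every value below is a mixture of hepatocytes and the other cells of the liver. In such samples fewer cells of a type and less RNA per cell cannot be told apart.

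IGF1 and IGF2 are small hormones that drive growth through the IGF1 receptor, and the liver is the main source of circulating IGF1, made there in response to growth hormone. Nearly all IGF in blood is carried by IGF binding proteins, which lengthen its life and limit its access to receptors. IGFBP1 to IGFBP6 bind IGFs tightly, whereas IGFBP7 binds them weakly and is made largely by vascular cells. IGFBP3 and IGFBP5 can hold IGF in a large ternary complex together with the acid-labile subunit, the product of Igfals. In the liver, hepatocytes are the known source of IGFBP1, IGFBP2 and IGFBP4, and IGFBP1 is known for its rapid repression by insulin.

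The total expected count per library ranged from 41120650 to 75664540. ID2_31, an ID2 animal, stood apart: its 12 pancreas acinar markers summed to 2722 TPM (transcript abundance scaled to a common total), against 8.39 to 180 in the other animals, so results on ID2 are also given without it where they are called. The 10 hepatocyte markers summed to between 101476 and 183930 TPM in the libraries. Title numbers under 200 occurred in all 3 ID8 animals, 2 ID2 animals and 2 ID4 animals, and the labels do not say what the number range stands for. Only the title numbers tell replicates apart, so p-values measure the spread between these animals.

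TPM, which is scaled for gene length, allows levels to be compared between genes. Igfbp4 had the highest median over the 27 animals, at 825 TPM. Igfbp2 followed at 165 TPM and Igfbp7 at 144 TPM. Igfbp1 had a median of 20.2 TPM, Igfbp3 of 13.1, Igfbp6 of 2.43 and Igfbp5 of 2.03. For a comparison of 1 gene between animals, CPM are used below, which are read counts brought to the same total in every library after TMM scaling. The ratio of the highest to the lowest animal was 15.5 for Igfbp1 in CPM, 4.01 for Igfbp2, 3.57 for Igfbp6, 3.51 for Igfbp3, 2.81 for Igfbp5, 1.87 for Igfbp7 and 1.86 for Igfbp4. The median of that ratio over all genes tested was 2.10. The abundant Igfbp4 and Igfbp7 were thus the least variable members, and Igfbp1 the most variable.

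**Figure D1:**
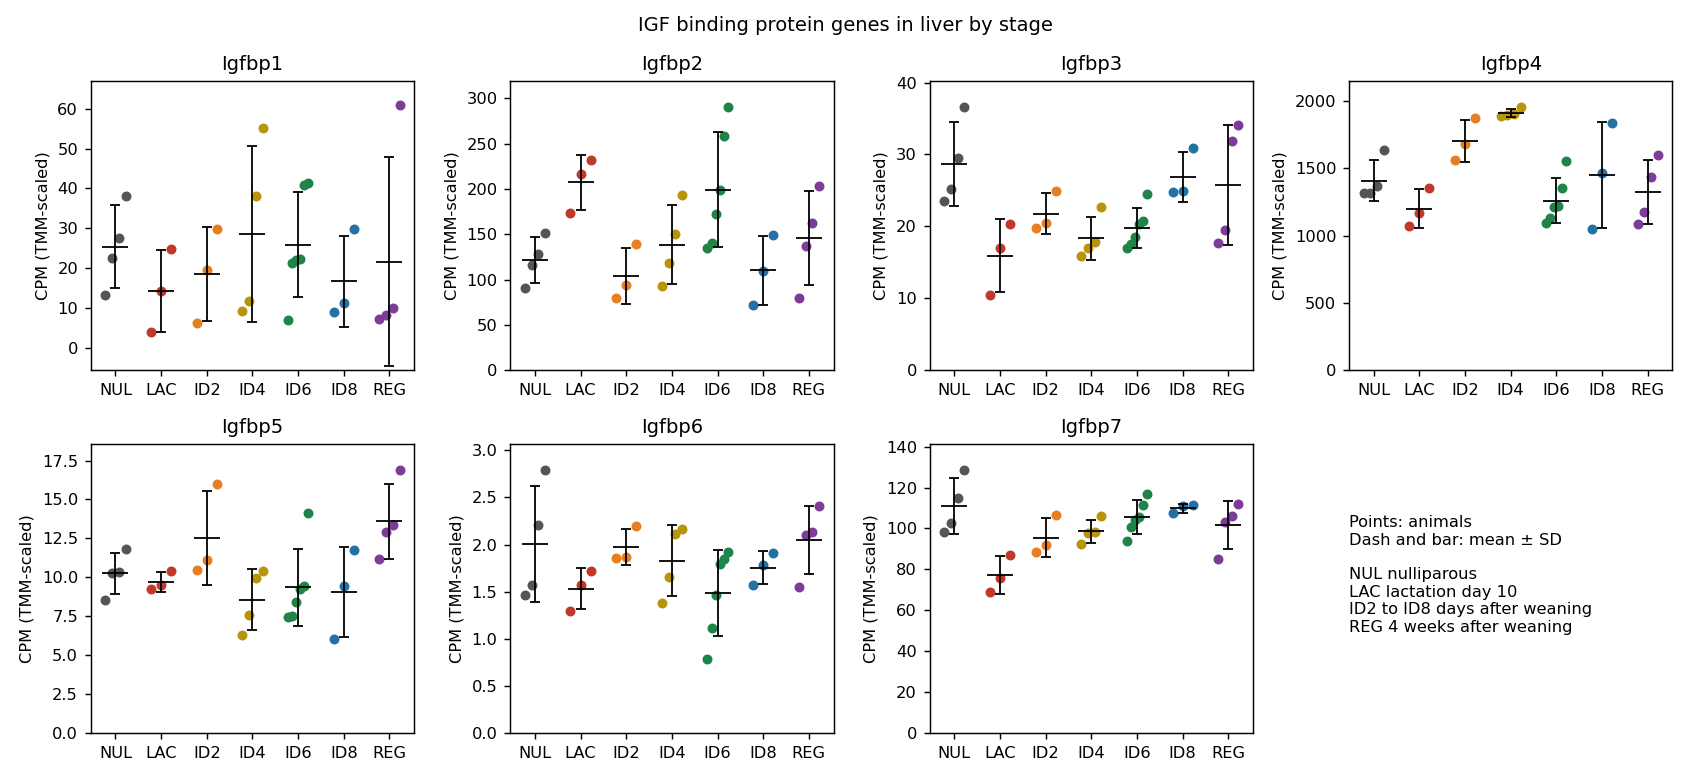
Expression of the 7 IGF binding protein genes by stage; the y axis is CPM of the TMM-scaled library on a linear scale, each point is 1 animal, and the dash with its bar is the mean ± SD of the stage. The 4 ID4 animals lie above every other animal for Igfbp4, the LAC animals are low for Igfbp3 and Igfbp7, and Igfbp1 spreads widely within every stage; the bar of Igfbp1 in REG reaches below 0 because 1 animal is far above the other 3.

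A gene was called when edgeR's quasi-likelihood test gave a Benjamini-Hochberg adjusted p under 0.05 over the 16428 genes tested. Asked whether they differed among any of the 7 stages, 3 of the 7 members were called, against 27% of all genes. These were Igfbp4 (adjusted p 0.00358), Igfbp7 (adjusted p 0.00596) and Igfbp3 (adjusted p 0.0271). Igfbp2 (adjusted p 0.0756), Igfbp5 (0.0896), Igfbp6 (0.425) and Igfbp1 (0.914) were not. The joint call of Igfbp7 was lost without LAC_213 (adjusted p 0.0567), and that of Igfbp3 without NUL_226 (0.0513), without the filter on low counts (0.0616) and in the animals numbered 200 and over (0.104). That of Igfbp4 was lost with limma on log2(TPM + 1) (0.0757) and log2(TPM + 0.1) (0.0711). DESeq2 called Igfbp2 as well (adjusted p 0.0155), as did limma on both TPM scales and edgeR without REG_239 (0.0433). Single comparisons gave 4 calls in all. In LAC against NUL, 2 of 7 members fell and none rose, where 11.2% of all genes were called and 6.00% were called lower. In ID2 against LAC, 1 of 7 rose, where 16.1% of all genes were called and 8.48% were called higher. In ID6 against ID4, 1 of 7 fell, where 8.53% of all genes were called and 4.64% were called lower. With 7 members, counts of 1 or 2 are too few to set the family apart from all genes.

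No member was called by edgeR in the other 8 comparisons. Of all genes, 3.24% were called in ID2 against NUL, 4.25% in ID4 against NUL, 1.08% in ID6 against NUL, 0.499% in ID8 against NUL and 0.0852% in REG against NUL. The share was 1.49% in ID4 against ID2, 4.12% in ID8 against ID6 and 0.0487% in REG against ID8. At an unadjusted p under 0.05, edgeR found 1 of 7 members in ID2 against NUL (16.9% of all genes at that unadjusted p), 2 in ID4 against NUL (18.6%), 2 in ID6 against NUL (11.9%), 0 in ID8 against NUL (12.8%) and 0 in REG against NUL (7.17%). The same count was 1 in ID4 against ID2 (13.9%), 2 in ID8 against ID6 (20.5%) and 1 in REG against ID8 (9.02%). DESeq2 called 2 members in ID4 against NUL and 0 in each of the other 7 of these comparisons. limma on log2(TPM + 1) called 1 member in ID8 against ID6 and 0 in the other 7. The 6 comparisons with NUL share the same 4 control animals.

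**Figure D2:**
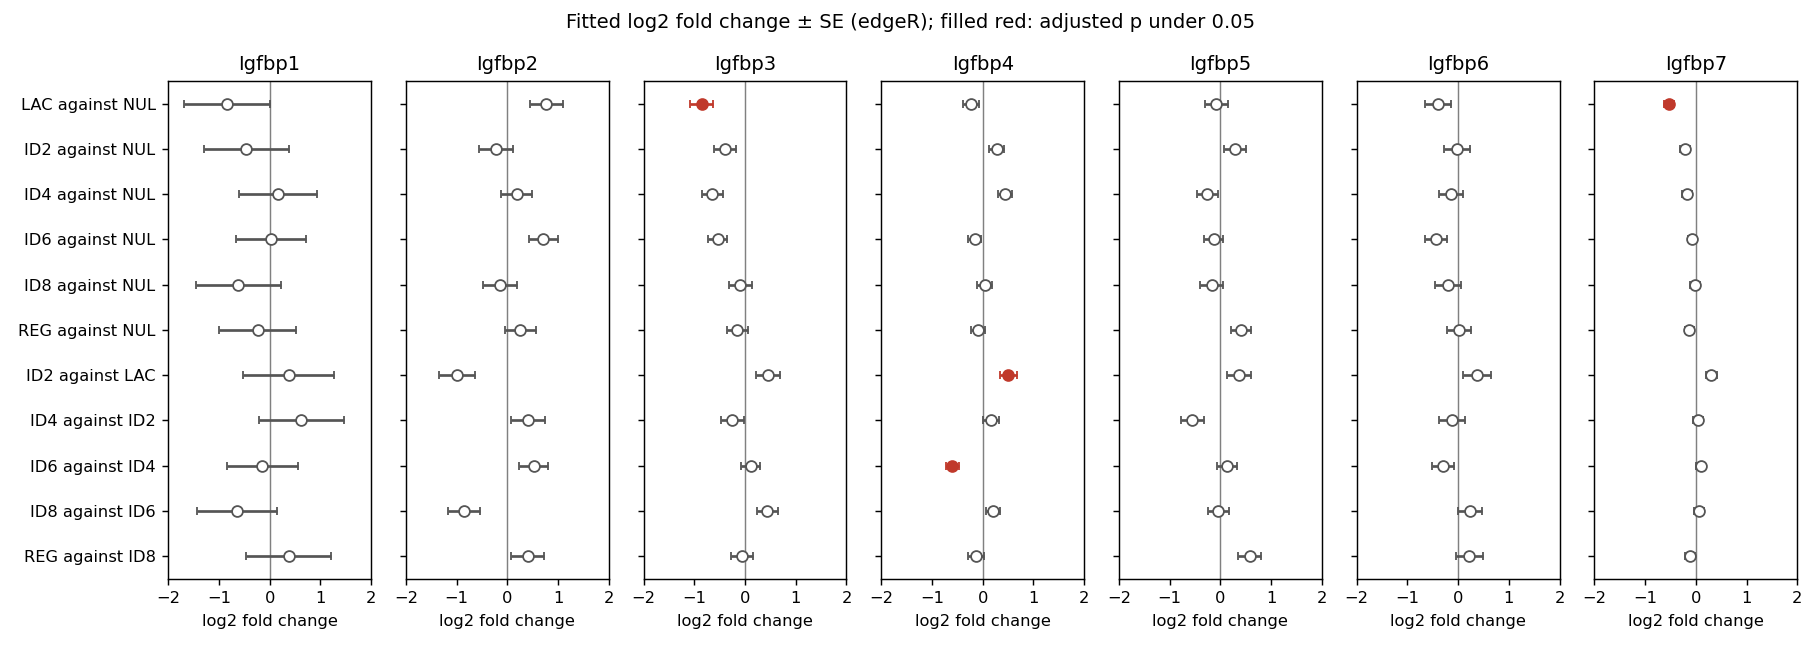
Fitted log2 fold change ± SE (x axis) of each of the 7 genes in the 11 comparisons (y axis), from 1 edgeR fit of all 27 libraries; red filled points have an adjusted p under 0.05. The 4 filled points are Igfbp3 and Igfbp7 in LAC against NUL and Igfbp4 in ID2 against LAC and in ID6 against ID4, and the bars of Igfbp1 are the widest.

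Igfbp4 (ENSMUSG00000017493; chromosome 11, 99041244 to 99054392, plus strand, on GRCm38) encodes a binding protein that inhibits IGF action and is released from IGF when the protease PAPP-A cleaves it. It was the member with the clearest change after weaning. Of the members' promoters, Igfbp4 alone held the TATA box letters TATAAA on the gene's own strand close to the start, and its sequence is shown for that reason (RefSeq, GRCm38.p6, chr11:99041144-99041243, plus strand, the 100 bases before the start, with TATAAA in capitals).
Igfbp4: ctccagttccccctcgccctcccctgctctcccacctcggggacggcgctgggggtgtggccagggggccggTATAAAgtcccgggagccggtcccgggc
The letters stand 28 to 23 bases before the start. TATAAA occurred on either strand in 12.4% of the 32851 promoters of 250 bases that were searched, and Igfbp6 held it on the opposite strand 148 to 143 bases before its start. A match of letters is a description and not a measured site.

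In CPM, Igfbp4 stood at 1317, 1319, 1369 and 1635 in the 4 NUL animals. The 3 LAC animals had 1073, 1170 and 1358. The 3 ID2 animals had 1560, 1683 and 1874, all above the LAC animals. The 4 ID4 animals lay within a narrow range, at 1891, 1899, 1905 and 1955, and every one of them was above all 23 animals of the other stages. The 6 ID6 animals were lower again, from 1092 to 1552 with a median of 1219. The 3 ID8 animals were widely spread, at 1050, 1465 and 1841, and the 4 REG animals had 1084, 1176, 1438 and 1600. By stage mean the order was ID4, ID2, ID8, NUL, REG, ID6 and LAC, and ID4 and ID2 were the only neighbours in that order whose animals did not overlap. The separation and narrow range of ID4 held in CPM and not in TPM. In TPM the ID4 animals ran from 961 to 1212. There ID4_215 (961) lay below NUL_227 (1077), ID8_101b (1050), REG_203 (982) and ID2_39 (981).

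From LAC to ID2, Igfbp4 rose from 1200 ± 145 CPM (SD, n = 3) to 1706 ± 158 (n = 3), which edgeR put at 0.51 on the log2 scale (SE 0.16; adjusted p 0.0308). From ID4 to ID6 it fell from 1912 ± 28.7 CPM (n = 4) to 1261 ± 169 (n = 6), with a fitted log2 difference of -0.60 (SE 0.13, edgeR adjusted p 0.00372). ID4 against NUL gave a log2 fold change of 0.44 (edgeR adjusted p 0.0676) without overlap between the animals in CPM. It was called only by DESeq2 (adjusted p 0.0271) and in the edgeR fit of those groups alone (0.0255). The fall from ID4 to ID6 stayed called in all 10 fits that left out 1 animal and in 12 of 13 other settings; on log2(TPM + 1) with limma its adjusted p was 0.0509. The rise from LAC to ID2 was less firm. It was called in 2 of 6 fits that left out 1 animal, and lost without ID2_224 (adjusted p 0.0655), ID2_39 (0.118), LAC_200 (0.122) or LAC_240 (0.0786); without ID2_31 it stayed called (0.0391). Of 13 other settings, 6 kept the call, and the adjusted p reached 0.279. Clock genes moved with it: a score of day-arm minus night-arm clock genes lay between 1.16 and 4.68 in ID2 and between -1.09 and 0.965 in LAC, and with that score as a covariate the log2 fold change was 0.35 (adjusted p 0.279). The score also did not overlap between ID4 (-0.429 to 1.61) and ID6 (-1.83 to -0.749). With it as a covariate the fall of Igfbp4 from ID4 to ID6 was -0.52 on the log2 scale and stayed called (adjusted p 0.0224). The part of the clock genes was not tested beyond these fits.

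Igfbp2 (ENSMUSG00000039323; chromosome 1, 72824503 to 72852474, plus strand) encodes the second most abundant IGF binding protein of blood, and its liver expression is known to fall in the presence of insulin and growth hormone. In CPM, Igfbp2 was 90.9, 116, 128 and 152 in NUL. The 3 LAC animals had 173.4, 216.5 and 231.6, all above the NUL animals. The 3 ID2 animals had 79.6, 94.0 and 139, all below the LAC animals. ID4 animals had 92.4, 118, 151 and 193, and ID6 animals ranged from 135 to 290 with a median of 185. The 3 ID8 animals had 72.4, 110 and 149, and the REG animals 79.4, 136.6, 162.7 and 202.9. Its highest stage means were thus in LAC (207 ± 30.2 CPM, SD, n = 3) and ID6 (199 ± 63.4, n = 6) and its lowest in ID2 (104.2 ± 30.95, n = 3).

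These differences did not pass the edgeR threshold. The log2 fold change of Igfbp2 was 0.77 in LAC against NUL (SE 0.33; adjusted p 0.149), -0.99 in ID2 against LAC (adjusted p 0.0618), 0.71 in ID6 against NUL (adjusted p 0.297) and -0.85 in ID8 against ID6 (adjusted p 0.128). The LAC change was called in the fit of LAC and NUL alone (adjusted p 0.0214) and not by DESeq2 (0.102). DESeq2 called ID2 against LAC (adjusted p 0.0297), and limma on log2(TPM + 1) called ID8 against ID6 (0.0494). With the title number range as a covariate, the last value moved to -0.16, since all ID8 animals are numbered under 200 and all ID6 animals are not. The number range and ID8 therefore cannot be told apart within that stage.

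Igfbp1 (ENSMUSG00000020429; chromosome 11, 7197782 to 7202546, plus strand) encodes the binding protein whose liver expression rises in fasting and falls after a meal. The forkhead factor FOXO1, which insulin excludes from the nucleus, is known to act on its promoter through a pair of short insulin response sequences. Both were found by their letters, CAAAACAA and, on the opposite strand, CAAAATAA, which reads TTATTTTG on the gene's strand. The promoter is shown with both in capitals (RefSeq, GRCm38.p6, chr11:7197537-7197786, plus strand, the 250 bases before the start), above a stretch of the promoter of Irs2, which is described beside Igfbp1 below (chr8:11008934-11008993, minus strand, 64 to 5 bases before the start, CAAAACAA on the opposite strand in capitals).
Igfbp1: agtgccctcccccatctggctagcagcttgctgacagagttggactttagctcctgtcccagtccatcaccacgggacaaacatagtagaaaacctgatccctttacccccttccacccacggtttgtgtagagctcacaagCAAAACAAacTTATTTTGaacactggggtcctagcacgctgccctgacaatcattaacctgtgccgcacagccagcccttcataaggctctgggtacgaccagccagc
Irs2: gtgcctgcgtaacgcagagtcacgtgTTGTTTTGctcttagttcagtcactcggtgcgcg
In Igfbp1 the letters begin 108 and 98 bases before the start. The 250 bases before the start of Irf2bp2, the gene most like Igfbp1 in its pattern, held neither CAAAACAA nor CAAAATAA. CAAAACAA was found on either strand in 2.21% of the 32851 promoters searched, CAAAATAA in 1.49%, and both in 0.07%. The forkhead letters GTAAACA (3.17% of promoters) and the STAT5 letters TTCNNNGAA (7.02%) were found in the 250 bases of none of the 7 members.

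Igfbp1 varied from animal to animal within every stage. In CPM, the NUL animals had 13.2, 22.5, 27.6 and 38.1. The LAC animals had 3.94, 14.1 and 24.7, and the ID2 animals 6.20, 19.4 and 29.9. The ID4 animals had 9.17, 11.7, 38.0 and 55.2, a split within 1 stage as wide as any between stages. ID6 ranged from 7.03 to 41.5 with a median of 22.2. The ID8 animals had 9.11, 11.2 and 29.8, and in REG 3 animals had 7.19, 8.17 and 9.99 while the fourth, REG_234, had 60.9. Every pair of neighbouring stages in the order of means overlapped.

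Stage accounted for 13.9% of the variance of Igfbp1 on the log2 CPM scale, against a median of 38.0% over all genes tested. Its SD within stages was 1.11 on that scale, higher than in 98.1% of genes. In LAC against NUL the log2 fold change was -0.83 (SE 0.85; adjusted p 0.614), with a 95% interval from -2.49 to 0.83. It was -1.49 without LAC_200 and -0.39 without LAC_213. In REG against NUL it was -0.24 (95% interval -1.74 to 1.26; adjusted p 0.995), in ID2 against LAC 0.37 (-1.38 to 2.13) and in ID6 against ID4 -0.14 (-1.50 to 1.22), a value whose sign turned on log2(TPM + 1), where it was 0.15. Intervals this wide leave room for changes of more than 2-fold in either direction, except above NUL in LAC. The REG value moved to -1.59 without REG_234, and was not called then.

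The 3 genes whose log2 CPM followed Igfbp1 most closely over the 27 animals, among 10510 genes, were Irf2bp2, which encodes a transcriptional co-repressor (Pearson r 0.83, Spearman rho 0.81), Irs2, which encodes an adaptor of the insulin receptor (r 0.67, rho 0.63), and Ip6k2, an inositol phosphate kinase (r 0.65, rho 0.62). After each stage's mean was subtracted, r was 0.85 for Irf2bp2, 0.74 for Irs2 and 0.70 for Ip6k2. These genes were chosen for their r over all animals, and stage held little of the variance of Igfbp1, so the values within stages are a description and not separate support. Both values of a pair come from the same library, with the same scaling. Irs2 reached its highest value, 88.9 CPM, in REG_234, the animal with the highest Igfbp1, and stood at 18.5 in LAC_213, the animal with the lowest. Irf2bp2 likewise had its highest value, 62.7 CPM, in REG_234 and its lowest, 23.7, in LAC_213. Without LAC_213 and ID2_31, the animals farthest from the median of Igfbp1 on the log2 CPM scale, r over the other 25 was 0.79 for Irf2bp2 and 0.68 for Irs2.

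**Figure D3:**
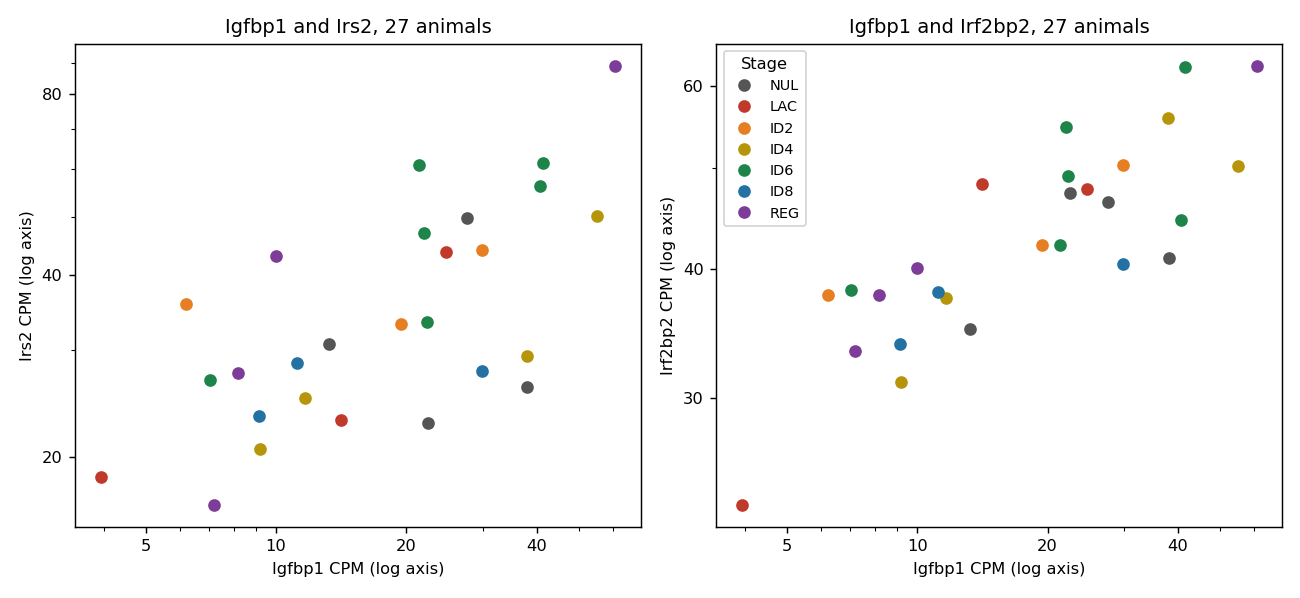
Igfbp1 (x axis, CPM, log scale) against Irs2 and Irf2bp2 (y axes, CPM, log scale) in the 27 animals, coloured by stage. Animals of every stage are spread along both axes; REG_234 is at the top right of both panels and LAC_213 at the lower left.

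Igfbp3 (ENSMUSG00000020427; chromosome 11, 7206086 to 7213923, minus strand) lies 3539 bases from Igfbp1 and encodes the main carrier of IGF in blood. In rodent liver it is known as a product of non-parenchymal cells rather than hepatocytes. In CPM, the NUL animals had 23.5, 25.2, 29.5 and 36.6. The LAC animals had 10.4, 16.9 and 20.4, all below the NUL animals. The ID2 animals had 19.85, 20.53 and 24.98, and the ID4 animals 15.8, 16.9, 17.9 and 22.6, so that ID4 also lay wholly below NUL. The ID6 animals ranged from 17.0 to 24.5 with a median of 19.4. All 3 ID8 animals (24.77, 24.98 and 30.90) were above them, and the REG animals fell into a lower pair (17.8 and 19.4) and a higher pair (31.9 and 34.1).

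From NUL to LAC, Igfbp3 fell from 28.7 ± 5.82 CPM (SD, n = 4) to 15.9 ± 5.06 (n = 3), a fitted log2 difference of -0.85 by edgeR (SE 0.23, adjusted p 0.0165). The change in ID4 against NUL was -0.65 (adjusted p 0.0761), that in ID6 against NUL -0.54 (0.194) and that in ID8 against ID6 0.44 (0.218), none of them called by edgeR over all libraries. ID4 against NUL was called by DESeq2 (adjusted p 0.0192) and in the fit of those groups alone (0.0317). The call in LAC was lost without LAC_213 (log2 fold change -0.62, adjusted p 0.115), without NUL_226 (-0.71, 0.0603) and in the fit of LAC and NUL alone (0.0810), and was kept in the other 5 fits that left out 1 animal.

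Igfbp7 (ENSMUSG00000036256; chromosome 5, 77349240 to 77408041, minus strand) encodes a secreted protein of blood vessels that binds IGFs weakly. In CPM, the NUL animals had 98.2, 103, 115 and 129. The LAC animals had 68.9, 75.5 and 87.2, all below the NUL animals, and only 1 of the 24 animals of the other stages, REG_203 with 85.0, was under the highest LAC value. The ID2 animals had 88.5, 91.7 and 106, and the ID4 animals 92.3, 97.9, 98.4 and 106. ID6 ranged from 93.8 to 117 with a median of 105. The ID8 animals had 107, 111 and 111, and the other 3 REG animals had 103, 106 and 112. LAC was the lowest stage and did not overlap with its neighbour ID2.

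From NUL to LAC, Igfbp7 fell from 111 ± 13.6 CPM (SD, n = 4) to 77.2 ± 9.26 (n = 3), a change of -0.52 on the log2 scale in the edgeR fit (SE 0.10, adjusted p 0.00125). It was called in all 7 fits that left out 1 animal and in all 13 other settings. ID2 against LAC gave 0.31 (edgeR adjusted p 0.0534), which missed the threshold. That change was called in 1 of 6 fits that left out 1 animal and in 3 of 13 other settings. Igfbp7 shares 85 exon bases with Polr2b, a gene on the opposite strand, and the use of strand in counting is not given in the sources used here; the counts of both genes were whole numbers in every library, which leaves no sign of reads divided between them.

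Markers of several non-parenchymal cell types moved with Igfbp3 and Igfbp7 in LAC. Of all genes, 6.00% were called lower in LAC against NUL and 8.48% higher in ID2 against LAC. The 10 sinusoidal endothelial markers summed to 158 to 183 TPM in LAC and 225 to 235 in NUL, with 3 of 10 called lower. The 10 stellate and fibroblast markers summed to 221.3 to 256.9 TPM in LAC and 314 to 390 in NUL, with 6 of 10 called lower. The 9 Kupffer cell markers summed to 261 to 352 TPM in LAC and 435 to 514 in NUL, with 7 of 9 called lower, and the 7 cholangiocyte markers to 25.6 to 34.3 and 39.8 to 55.7, with 2 of 7 called lower. The 10 hepatocyte markers summed to 158559 to 183930 TPM in LAC and 102727 to 127167 in NUL, with 1 called higher and 1 lower. Igfbp7 divided by the sinusoidal sum was 0.592 ± 0.0325 in LAC (SD, n = 3) and 0.682 ± 0.0682 in NUL (n = 4). That ratio was chosen after the values had been seen and is given as a description. It was not lowest in LAC (0.557 to 0.621): by stage mean it was lowest in ID4, where it ran from 0.497 to 0.614. The ranges of ID2 (0.545 to 0.624) and REG (0.532 to 0.650) also began below that of LAC and ended above it. An exact permutation test of 3 against 4 animals cannot go below p = 0.05714. In ID2 against LAC, 6 of the 10 sinusoidal, 3 of the 10 stellate and fibroblast and 7 of the 9 Kupffer cell markers were called higher. Without ID2_31 these counts were 4, 2 and 7. Kupffer cell markers did not follow Igfbp3 in later stages: 6 of 9 were called higher in ID4 against NUL and 4 of 9 in ID6 against NUL. Igfbp3 stood there at -0.65 and -0.54 on the log2 scale. The stellate and fibroblast sum, like Igfbp3, lay wholly below NUL in ID4 (274.3 to 307.8 TPM), with 1 of 10 markers called lower. In ID6 that sum (293.6 to 364.8 TPM) overlapped with NUL, and no marker of the list was called. The sinusoidal sum ran from 220.9 to 255.3 TPM in ID4 and from 247.5 to 265.7 in ID6, where it was above NUL. The part of these markers in the fall of Igfbp3 was not tested.

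**Figure D4:**
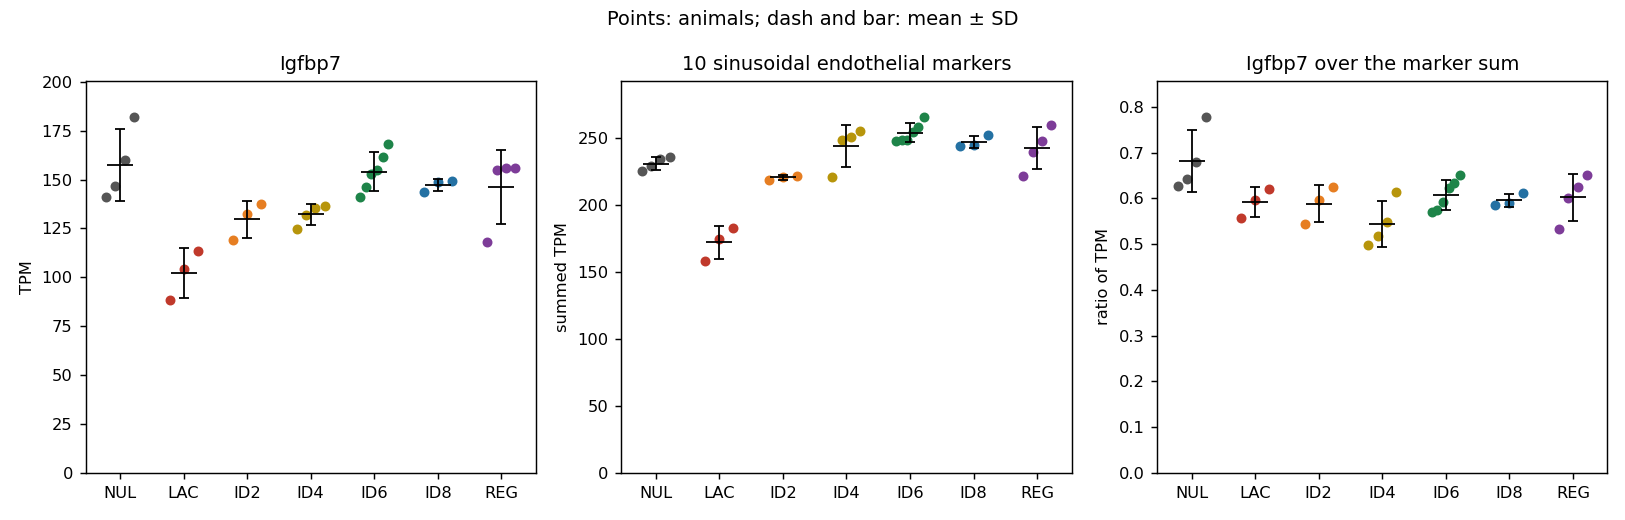
Igfbp7 (left, TPM), the sum of 10 sinusoidal endothelial markers (middle, TPM) and their ratio (right) by stage; each point is 1 animal and the dash with its bar is the mean ± SD. The stage means of Igfbp7 and of the marker sum are lowest in LAC, and the ratio is lower in the 3 LAC animals (0.557 to 0.621) than in the 4 NUL animals (0.627 to 0.778) and lowest by stage mean in ID4.

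Igfbp3 and Igfbp7 were also the most alike pair of members over the 27 animals (r 0.66, rho 0.56; r 0.51 after subtracting stage means), and the neighbours Igfbp1 and Igfbp3 were little alike (r 0.10). The genes most like Igfbp3 were Dpt, which encodes the matrix protein dermatopontin (r 0.80), Spp1, which encodes osteopontin and is a cholangiocyte marker of the list above (r 0.80), and Tagln, a smooth muscle and myofibroblast gene (r 0.77). Those most like Igfbp7 were Tfpi, an inhibitor of coagulation made by endothelium (r 0.83), Lbh (r 0.83) and Adgrl4, an endothelial adhesion receptor (r 0.82). For Igfbp4 they were Gne, an enzyme of sialic acid synthesis (r 0.88), Prdx6, a peroxiredoxin (r 0.87), and Lcat, the plasma enzyme that esterifies cholesterol (r 0.85). For Igfbp2 they were Ivns1abp (r 0.74), Dus1l (0.72) and Leo1 (0.72).

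Igfbp5 (ENSMUSG00000026185; chromosome 1, 72857932 to 72874884, minus strand) encodes a binding protein with a strong affinity for matrix and lies 5457 bases from Igfbp2. In CPM, the NUL animals had 8.56, 10.3, 10.3 and 11.8. The LAC animals had 9.22, 9.49 and 10.4, inside the NUL range. In ID2 the values were 10.5, 11.1 and 16.0, the last in ID2_31. ID4 animals had 6.30, 7.55, 9.96 and 10.4, ID6 animals 7.43 to 14.1 with a median of 8.82, and ID8 animals 6.01, 9.44 and 11.7. The 4 REG animals (11.2, 12.9, 13.4 and 16.9) gave the highest stage mean, 13.6 ± 2.40 CPM (SD, n = 4).

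No comparison of Igfbp5 was called. Its log2 fold change was -0.55 in ID4 against ID2 (adjusted p 0.250) and -0.33 without ID2_31. It was 0.58 in REG against ID8 (adjusted p 0.462) and 0.41 in REG against NUL. The joint test over the stages was called by DESeq2 (adjusted p 0.0231), with the title number range as a covariate (0.0277), in the animals numbered 200 and over (0.0335), without ID6_230 (0.0166) and without ID8_14 (0.0426). Over the 27 animals, Igfbp5 and its neighbour Igfbp2 had r -0.31. Genes like Igfbp5 included Gtf3c2 (r 0.75) and Atp7b (0.68).

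Igfbp6 (ENSMUSG00000023046; chromosome 15, 102144362 to 102149511, plus strand) encodes the binding protein that prefers IGF2 to IGF1. It was the member with the fewest reads, from 54 to 206 per library. In CPM, the NUL animals had 1.46, 1.58, 2.21 and 2.79, and the LAC animals 1.29, 1.58 and 1.72. The ID2 animals had 1.86, 1.87 and 2.19, all above LAC. ID4 animals had 1.38, 1.66, 2.11 and 2.16, ID6 animals 0.781 to 1.92 with a median of 1.63, ID8 animals 1.57, 1.79 and 1.91, and REG animals 1.55, 2.11, 2.13 and 2.41. No comparison was called: the log2 fold change was -0.39 in LAC against NUL (adjusted p 0.384), 0.37 in ID2 against LAC, -0.30 in ID6 against ID4 and 0.02 in REG against NUL. The genes most like it were Dtd1 (r 0.78), Tmem175 (0.71) and Dmac2 (0.66).

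At 4 weeks after weaning no member differed from NUL by the test. The log2 fold changes in REG against NUL were -0.24 for Igfbp1, 0.26 for Igfbp2, -0.15 for Igfbp3, -0.09 for Igfbp4, 0.41 for Igfbp5, 0.02 for Igfbp6 and -0.13 for Igfbp7. Over the list, groups that did not overlap numbered 3 of 7 members in LAC against NUL (21.4% of all genes), 5 in ID2 against LAC (35.7%), 2 in ID4 against NUL (11.6%), 2 in ID4 against ID2 (16.2%), 1 in ID6 against ID4 (8.25%) and 1 in ID8 against ID6 (10.1%). None of the 7 was free of overlap in ID2 against NUL (17.9% of all genes), ID6 against NUL (3.38%), ID8 against NUL (11.9%), REG against NUL (3.70%) or REG against ID8 (7.71%).

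The ligands, carriers and receptors that the binding proteins work with gave a background for these changes. Of 9 such genes tested, 1 rose in LAC against NUL, where 11.2% of all genes were called in either direction. In ID2 against LAC 3 rose, where 8.48% of all genes were called higher. In ID6 against ID4 2 fell, where 4.64% of all genes were called lower. Counts this small, here and in the lists below, were not tested against the share of all genes. Igf2, a fetal growth factor that the adult rodent liver expresses little, stood at 0.442, 0.474, 0.732 and 1.05 CPM in NUL and 3.10, 3.47 and 9.80 in LAC. It rose by 3.02 on the log2 scale in LAC (SE 0.53; adjusted p 0.000668) and by 2.43 in ID2 against NUL (adjusted p 0.0104), a call that was lost without ID2_39 (0.0573) and kept without ID2_31 (0.0159). Igf2 shares 98 exon bases with the antisense gene Igf2os, whose own count was 0 to 6 per library. It also shares 3596 exon bases with Gm49394, an annotated gene on the same strand that was not analysed here, and its values are uncertain for that reason.

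Igf1 in CPM was 513, 598, 611 and 727 in NUL, and 480, 511 and 544 in LAC (log2 fold change -0.26; adjusted p 0.128). All 3 ID2 animals (658, 673 and 687) were above the LAC animals, and Igf1 rose by 0.40 on the log2 scale (adjusted p 0.0185). From ID4, at 608, 706, 718 and 734, to ID6, at 475 to 664, it fell by 0.33 (adjusted p 0.0229). Igfals rose by 0.58 from LAC to ID2 (178 to 266 CPM; adjusted p 0.0167) and fell by 0.60 from ID4 to ID6 (273 to 180 CPM; adjusted p 0.00450). Igfals was also called in ID4 against NUL (0.51; adjusted p 0.0376). Igf1, Igfals and Igfbp4 thus rose in ID2 against LAC and fell in ID6 against ID4, 2 comparisons that share no animals. Without ID2_31 the adjusted p in ID2 against LAC was 0.0388 for Igf1 and 0.0293 for Igfals. The 2 Igf1 calls and the Igfals calls in ID2 against LAC and ID4 against NUL were each lost in 3 or 5 of the fits that left out 1 animal, with adjusted p up to 0.187, whereas Igfals in ID6 against ID4 was called in 10 of 10. The clock score differed between the stages of both comparisons, as for Igfbp4, and its part in the changes of Igf1 and Igfals was not tested.

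**Figure D5:**
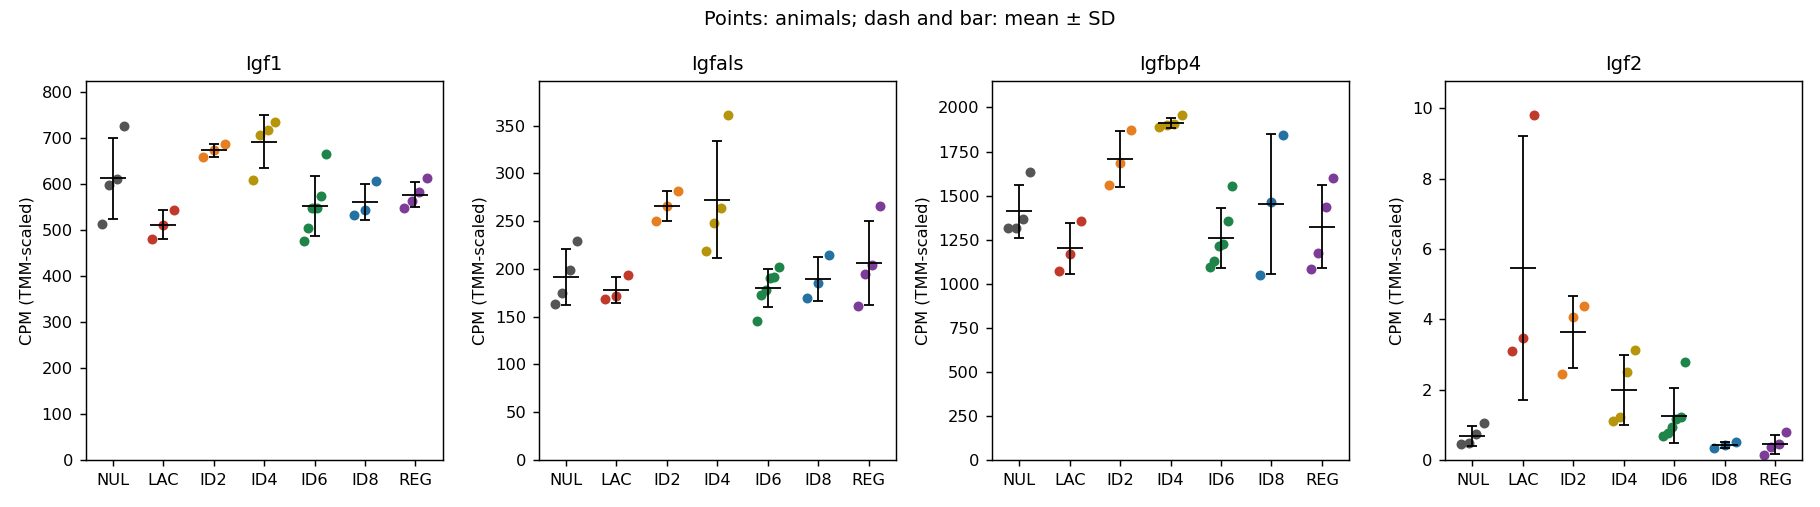
Igf1, Igfals, Igfbp4 and Igf2 by stage; the y axis is CPM of the TMM-scaled library, each point is 1 animal, and the dash with its bar is the mean ± SD. Igf1, Igfals and Igfbp4 are high in ID2 and ID4 and lower in LAC and ID6, while Igf2 is highest in LAC.

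The growth hormone receptor gene Ghr rose by 0.63 from LAC to ID2 (278 to 430 CPM; adjusted p 0.000740), after a LAC value of -0.33 against NUL that missed the threshold (adjusted p 0.0552). Igf1r, which encodes the IGF1 receptor, was low throughout, with stage means of 1.58 to 2.22 CPM, and was called in none of the 11 comparisons by edgeR; its smallest adjusted p was 0.254, in ID8 against ID6. Of the 13 growth hormone and prolactin signalling genes, 2 fell in LAC against NUL, both transducers of these hormones: Stat5a, from 20.5 to 11.9 CPM (log2 fold change -0.79; adjusted p 0.000419), and Stat5b, from 68.1 to 51.8 (-0.40; 0.0169), which was lost without LAC_213 or NUL_226 (adjusted p up to 0.155). In ID2 against LAC, 5 of 13 rose: Ghr, Igf1 and Igfals as above, the prolactin receptor gene Prlr (0.48; adjusted p 0.00335) and Stat5b (0.49; 0.00495). Without ID2_31, Ghr (adjusted p 0.00275), Prlr (0.00476) and Stat5b (0.0307) were called too. In ID6 against ID4, 2 of 13 fell, Igf1 and Igfals, where 4.64% of all genes were called lower. The share of all genes was 6.00% called lower in LAC against NUL and 8.48% called higher in ID2 against LAC.

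Among IGFBP proteases and their inhibitors, 10 of 12 were tested. For these and the IGFBP-related genes, the share of all genes was 6.00% called lower in LAC against NUL. It was 8.48% called higher in ID2 against LAC. Mmp2, a gelatinase, fell in LAC from 3.353 to 1.299 CPM (log2 fold change -1.37; adjusted p 0.000857) and rose in ID2 against LAC (1.38; 0.00102). Klk1, a kallikrein made in the pancreas, and Timp1, an inhibitor of matrix proteases, were called higher there too, 3 of 10 in all. Both calls were lost without ID2_31, the animal with pancreas markers (adjusted p 0.166 for Klk1 and 0.0502 for Timp1), whereas Mmp2 kept its call (0.00321). Of 9 IGFBP-related genes tested, Ccn4 fell in LAC against NUL (1.24 to 0.443 CPM; adjusted p 0.00454), and Ccn4 and Ccn3 were called higher in ID2 against LAC; neither was called without ID2_31 (adjusted p 0.0866 and 0.102).

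The share of all genes called in either direction was 11.2% in LAC against NUL and 16.1% in ID2 against LAC, with 8.48% called higher in the latter. The insulin and FOXO1 responsive genes, of which 14 were tested, moved in both directions. Among those called in LAC against NUL, Pck1, an enzyme of glucose synthesis that insulin represses, fell from 1643 to 642 CPM (log2 fold change -1.36; adjusted p 0.0427). This was not firm: leaving out 1 animal kept the call in 3 of 7 fits, with LAC_213 and NUL_226 among the animals that it needed. In ID2 against LAC, 4 of 14 rose (Pck1, Foxo1, Ppargc1a and Foxo3), with Pck1 at 3046 CPM in ID2, and Pdk4 was among those that fell. These 5 genes were also called without ID2_31 (largest adjusted p 0.0272, of Foxo3). Igfbp1, which belongs to the same physiology, was not called in either comparison. Of 12 genes of the ATF4 and amino acid response, Ddit4 rose in LAC against NUL (1.17; adjusted p 0.000112). In ID2 against LAC, Trib3 and Sesn2 rose and Ddit4 and Atf4 fell, and all 4 were called without ID2_31 (largest adjusted p 0.0253, of Sesn2). In REG against NUL edgeR called 0 genes of these 6 lists; at an unadjusted p under 0.05 it found 7.17% of all genes, 1 of 9 ligands, carriers and receptors, 3 of 13 growth hormone and prolactin genes, 2 of 10 proteases and inhibitors, 0 of 9 related genes, 1 of 14 insulin responsive genes and 5 of 12 ATF4 genes. The lists were not tested with other tools.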

How the data were processed

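Per the labels, RNA came from a Trizol extraction and the library kit was NEBNext Ultra RNA. STAR 2.6.1a, RSEM 1.3.1 and the builds mm10 and GRCm38 are named in the submitters' processing notes; trimming, annotation release and strand setting are not given in the sources used here. The authors deposited an expected count, an estimated count of reads, and a TPM per gene and library, per the file headers. The sequencing runs of a library were combined (16 libraries with 2 runs, 11 with 1), per the authors' readme. The effective gene length, a deposited score per gene in bases per the file headers, served as an alternative offset.

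Symbols and positions came from GENCODE vM21 on GRCm38, which held 51633 of the 51826 identifiers; the other 193 held 0.0147% of counts. Expected counts were rounded; those of all 7 members were whole in every library. In R 4.3.3 with edgeR 4.0.16, filterByExpr kept 16428 genes with at least 99.978% of each library's counts, libraries were scaled by TMM, and all 27 entered 1 robust quasi-likelihood fit (common dispersion 0.036). Tests were two-sided: 11 comparisons and a joint test, with Benjamini-Hochberg adjustment over all genes. SE is the log2 fold change over the root of F, and intervals are 1.96 SE to each side. No pair of replicates was near sampling noise (smallest chi-square per gene 42.4). The scripts were tested on simulated data. Alternatives used limma 3.58.1 and DESeq2 1.42.0 and the settings given in the closing section. Counting error alone is larger for low genes.

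The members and gene lists were chosen with earlier results of these data known. All 7 members are described in every comparison that is named. From the lists, Igf1, Igfals, Ghr and Igf1r are named, and up to 4 called genes per list and comparison. Some genes that these rules pick are not reported here. Like genes are the 3 with the highest Pearson r of log2 CPM (prior count 2) among genes whose log2 CPM averaged at least 1. Motifs were searched on both strands of RefSeq promoters, 250 bases before the start.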

Additional observations from a re-analysis of the deposited data

Results flagged for a closer look

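Of 56 sets of 4 to 6 animals of 1 stage and 1 gene (the 7 members and the IGF ligands, carriers and receptors shown per animal), 5 held an animal farther from the others than Dixon's test allows at the 95% level. Chance alone flags about 1 set in 20. Igfbp1 in REG_234 was 60.9 CPM, and the other 3 REG animals lay between 7.19 and 9.99. Igfbp4 in NUL_227 was 1635 CPM, and the other 3 NUL animals lay between 1317 and 1369. Igfbp5 in ID6_230 was 14.1 CPM, and the other 5 ID6 animals lay between 7.43 and 9.42. Igf2 in ID6_216 was 2.79 CPM, and the other 5 lay between 0.676 and 1.22. Igf2r in REG_214 was 51.0 CPM, and the other 3 lay between 45.0 and 45.4.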

How the results depend on the processing

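The direction of the 4 called changes was kept in every fit run. Counts of called members moved as follows. Over the 7 stages (3), DESeq2 called 5, the title number covariate gave 4, an adjusted p under 0.01 and no filter on low counts each gave 2, and leaving out 1 animal gave 2 to 4. The number in brackets is that of the edgeR fit of all libraries. In LAC against NUL (2), 1 was called at an adjusted p under 0.01, and 1 to 2 when 1 animal was left out, with 1 without LAC_213 or NUL_226. In ID4 against NUL (0), 2 were called in the fit of only the groups compared and 2 by DESeq2. In ID2 against LAC (1), 0 were called at an adjusted p under 0.01, with the title number covariate and with the effective length offset. Among animals numbered 200 and over, ID2 holds only ID2_224, so no call is given for that setting. With only the groups compared and by DESeq2, 2 were called. Leaving out 1 animal gave 0 to 1, with 0 without ID2_224, ID2_39 or LAC_240. An equal count can hold another member. Igfbp4 was called in 2 of the 6 fits that left out 1 animal and Igfbp7 in 1. Of the 13 other settings, Igfbp4 was called in 6 and Igfbp7 in 3. In ID6 against ID4 (1), log2(TPM + 1) with limma gave 0. In ID8 against ID6 (0), log2(TPM + 1) and log2(TPM + 0.1) each gave 1. The median log2 fold change of all genes on log2(TPM + 0.1) with limma was 0.126 in ID6 against ID4 (0.0139 in edgeR) and -0.111 in ID8 against ID6 (0.000696 in edgeR). These settings change both the scale and the tool. The cause of the moves was not tested.

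Changes of sign concerned uncalled values. Igfbp1 in ID6 against ID4 was 0.15 on log2(TPM + 1) and 0.16 on log2(TPM + 0.1). When 1 animal was left out, log2 fold changes ran from -1.59 to 0.052 for Igfbp1 and from -0.10 to 0.23 for Igfbp6 in REG against NUL, from -0.16 to 1.03 for Igfbp1 in ID2 against LAC, and in ID6 against ID4 from -0.44 to 0.40 for Igfbp1 and from -0.028 to 0.24 for Igfbp5. No paired analysis was possible because no title number occurs in more than 1 stage. The alternatives by number of runs and in animals numbered 200 and over were chosen after seeing the data. In the latter setting ID2 holds only ID2_224 and ID8 holds no animal, which also limits its joint tests. Depth limits Igfbp6 most, at 54 reads in its lowest library.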
